A study of Equus caballus with 9 samples.

Results

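The comparison set cultured cells from the blood of electroacupuncture-treated horses against cultured adipose cells of untreated horses, across the genome. It used 6 of the 9 arrays of the series, with 3 arrays a group. Its members are all probe sets that the platform annotation ties to a single gene symbol, 16789 of 30559 probe sets and 16661 distinct genes. They were taken by annotation alone, and each was compared as the deposited log2 intensity of the blood-derived cells minus that of the adipose cells.

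The series measured RNA of horse cells (Equus caballus) on Affymetrix expression arrays, 1 array per sample. The blood-derived cells, abbreviated EA-ADSC in the labels, were cultured from blood mononuclear cells of 3 horses bled 2 h after electroacupuncture, a treatment that passes current between acupuncture needles. The adipose cells, abbreviated AD-MSC, came from tailhead fat of healthy control horses with no treatment, 3 by the design text. Bone marrow cells of 3 healthy untreated horses, the third group, entered the estimate of the spread but not the difference tested. Their arrays also counted in the median of all values and in the choice of 1 probe set per gene for the lists. Bone marrow values are given as levels with no test.

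In all groups the cells that stuck to uncoated plastic through 96 h of culture in 15% fetal bovine serum gave 100 ng of total RNA, amplified before labelling. The labels used here give no breed, age or sex of the horses. No horse is named for the adipose samples, and the sources used here do not say when they were processed relative to the other arrays. Tissue of origin, treatment and horse differ together between the groups, so their parts cannot be told apart. Any difference in processing between the adipose arrays and the others would coincide with them too. Nothing states whether the samples of a group were handled as separate cultures, and the p-values measure the spread between these samples. Fewer cells of a type and less RNA per cell cannot be told apart in such bulk samples.

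Plastic-adherent stromal cells are fibroblast-like cells that secrete collagen-rich matrix, pull on it through actin stress fibres and integrins, and signal to neighbours through growth factors. Collagen chains are hydroxylated, glycosylated and folded in the endoplasmic reticulum by dedicated enzymes and chaperones, and are then trimmed and cross-linked outside the cell. Stromal cells of fat can also turn into adipocytes, a step driven by transcription factors such as PPARG and promoted in culture by glucocorticoids.

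Array values below are deposited log2 intensities of replicates 1, 2 and 3 in that order, unless they are called differences. A fold is 2 to the power of the log2 difference, and every adjusted p comes from limma's moderated test with Benjamini-Hochberg adjustment over all 30559 probe sets. A gene is called higher or lower where the adjusted p was under 0.05. How far a dim probe set lay above background could not be judged, so folds against a group below the median of all values, 4.62, hold for the deposited values only. Intensities of different genes are not compared.

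The blood-derived and adipose cells differed in 1533 of the 16789 probe sets naming 1 gene, 9.13% of them. In the blood-derived cells 835 probe sets were higher (4.97%) and 698 were lower (4.16%). At an unadjusted p under 0.05 the number was 4001 of the 16789, the background for the unadjusted counts of lists given below. The median log2 difference over all 16789 was 0.00385, and the median standard error over all probe sets was 0.19. Over all 30559 probe sets 2116 were called (6.92%). The 3 blood-derived arrays lay wholly above the 3 adipose arrays in 2329 probe sets (13.9%) and wholly below them in 2181 (13%).

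Most calls were moderate in size. Of the higher calls 363 lay under 2-fold, 307 between 2- and 4-fold, 80 between 4- and 8-fold, 60 between 8- and 16-fold and 25 above that. Of the lower calls 316, 257, 77, 24 and 24 fell into the same bands. Of 13427 rows with no gene name 550 were called (4.1%), and of 343 rows naming several genes 33 (9.62%). A fit of the 6 arrays alone, with fewer samples behind the spread, called 434 higher and 335 lower. The 835 higher calls became 525 and 554 when blood-derived replicate 2 or 3 was left out, and 533 when adipose replicate 3 was. The 698 lower calls became 445, 376 and 435 without blood-derived replicates 1, 2 and 3, and 451 without adipose replicate 3.

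Both groups carried the stromal markers of their label, and the defining markers of blood and vessel cells were low in both. THY1, the CD90 surface antigen, was at 10.81, 10.72 and 10.36 in blood-derived cells, against 9.24, 9.33 and 9.58 in adipose cells (2.37-fold higher, adjusted p = 0.018). Leaving out blood-derived replicate 1, blood-derived replicate 2 or adipose replicate 1 ended that call (adjusted p 0.0514 to 0.063). ENG, the TGF-beta co-receptor CD105, was at 7.15, 6.90 and 7.19 in blood-derived cells, against 6.03, 6.17 and 6.24 in adipose cells (1.91-fold higher, adjusted p = 0.00374). CD44, the hyaluronan receptor, was at 8.67, 8.62 and 8.91 in blood-derived cells, against 8.43, 8.56 and 8.74 in adipose cells (adjusted p = 0.586). NT5E, the ecto-nucleotidase CD73, was at 6.27, 6.51 and 4.99 in blood-derived cells, against 6.08, 6.57 and 5.70 in adipose cells (adjusted p = 0.841). The THY1 and ENG arrays did not overlap between the groups, while those of CD44 and NT5E did. Of 17 surface markers of mesenchymal stromal cells 6 were higher and 1 lower (median 0.15), and of 18 fibroblast genes 4 were higher and 2 lower (median 0.04). FAP, the fibroblast activation protease, was 6.41-fold lower (adjusted p = 0.0207), a call that ended without any 1 of the blood-derived arrays or adipose replicate 3 (0.0546 to 0.0706) and in the 6 arrays alone (0.071).

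PTPRC, the pan-leukocyte phosphatase CD45, was at 3.10, 3.21 and 3.01 in blood-derived cells, against 3.53, 2.57 and 3.33 in adipose cells (adjusted p = 0.967), below the median of all values on each array. CD3E of the T-cell receptor, MS4A1 of B cells and PECAM1 of endothelium also lay below that median on all 6 arrays, with adjusted p of 0.816, 0.434 and 0.551. CDH5, the cadherin of endothelium, was at 4.63, 4.63 and 4.46 in blood-derived cells, against 4.54, 4.47 and 4.53 in adipose cells (adjusted p = 0.83). Over whole marker lists, 1 of 14 pan-leukocyte genes was higher, 1 of 18 monocyte and macrophage genes lower, 1 of 17 T and NK lymphocyte genes higher, and none of 9 B lymphocyte, 7 neutrophil, 14 endothelial or 11 pericyte genes was called. The corresponding background is 4.99% higher and 4.15% lower over the 16661 genes. At an unadjusted p under 0.05 the B lymphocyte, neutrophil, endothelial and pericyte lists had 0, 1, 2 and 1 members.

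The mean intensity over the pan-leukocyte list ranged from 4.29 to 4.52 on blood-derived arrays and from 4.09 to 4.22 on adipose arrays. Its called member was ARHGDIB, a gene best known from blood cells, at 10.47, 9.09 and 11.23 in blood-derived cells, against 5.03, 5.50 and 4.96 in adipose cells (34.2-fold higher, adjusted p = 0.00234). The monocyte list ranged from 4.0 to 4.21 on blood-derived arrays and from 4.28 to 4.51 on adipose arrays. FCER1G, the Fc receptor gamma chain, was its called member, at 4.49, 3.68 and 3.61 in blood-derived cells, against 6.70, 6.11 and 6.91 in adipose cells (6.27-fold lower, adjusted p = 0.0193). That call ended without blood-derived replicate 2 or 3 or adipose replicate 1 or 3 (adjusted p 0.0535 to 0.068). NKG7, a granule protein of cytotoxic lymphocytes, was the called member of the lymphocyte list, at 6.77, 7.60 and 7.15 in blood-derived cells, against 5.46, 4.92 and 4.92 in adipose cells (4.21-fold higher, adjusted p = 0.0468), and its call ended without any 1 of 8 of the 9 arrays, bone marrow replicate 3 being the exception (0.0505 to 0.137). The part of remaining blood cells in the results was not tested.

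Of 9 mature adipocyte markers 2 were lower, none was higher and 7 were not called, with 4 of the 9 differences above 0 and a list median of -0.09. Both called markers were uneven among the adipose arrays. FABP4, the fatty-acid-binding protein of adipocytes, was at 2.93, 2.85 and 3.16 in blood-derived cells, against 6.25, 11.27 and 8.14 in adipose cells (47.6-fold lower, adjusted p = 0.0171). The adipose arrays spanned a wide range, with replicate 2 the highest, and none overlapped the blood-derived arrays. CIDEC, a lipid-droplet protein, had the same order, at 4.29, 4.24 and 4.42 in blood-derived cells, against 5.62, 7.83 and 6.66 in adipose cells (5.23-fold lower, adjusted p = 0.0205). Both calls ended without any 1 of the blood-derived arrays, at adjusted p of 0.0527 to 0.0584 for FABP4, and of 0.0578 to 0.067 for CIDEC, which also lost it without adipose replicate 3. The fits of the 6 arrays alone gave 0.0622 and 0.0687. ADIPOQ, the adipocyte hormone adiponectin, was at 4.0, 4.03 and 4.38 in blood-derived cells, against 4.24, 4.97 and 4.49 in adipose cells (adjusted p = 0.325), and PLIN1, the lipid-droplet coat protein, had an adjusted p of 0.921. Whether a share of maturing adipocytes in the adipose samples bears on the results below was not tested.

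**Figure D1:**
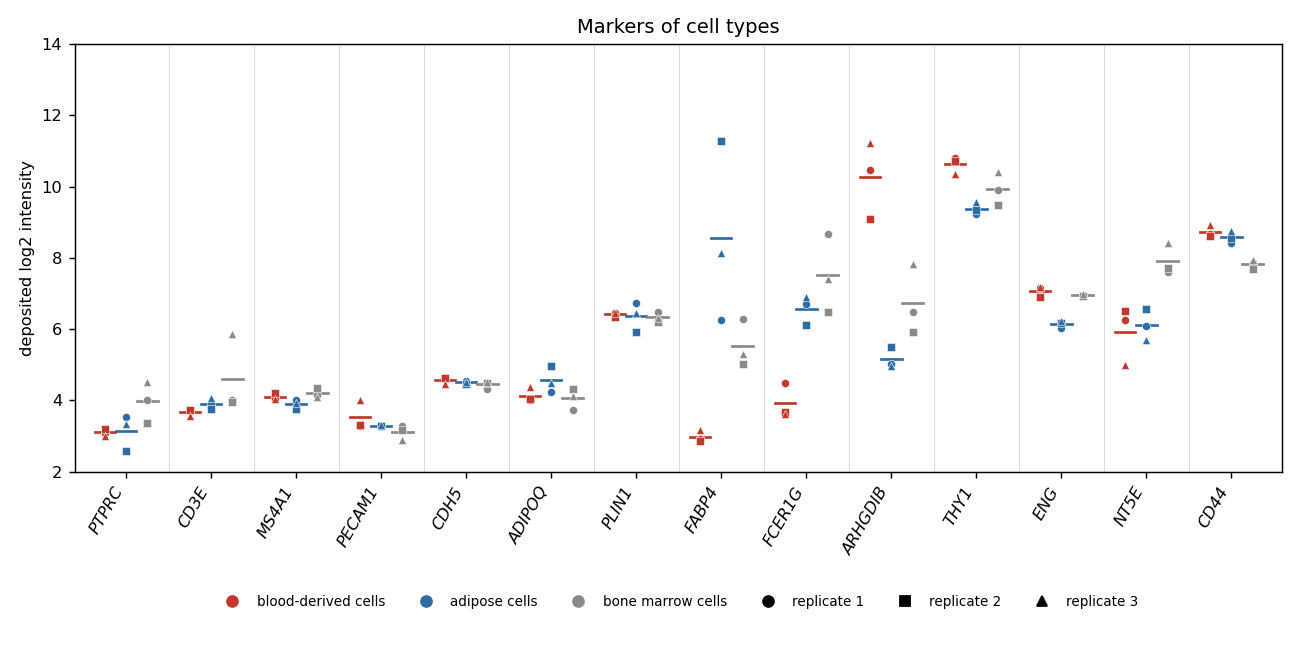
Deposited log2 intensity (vertical axis) of 14 cell type marker genes on each array, with blood-derived cells (red), adipose cells (blue) and bone marrow cells (grey) side by side, symbols for replicates and bars for group means. PTPRC, CD3E and PECAM1 sit low in the blood-derived and adipose cells, THY1 and ENG are higher in the blood-derived cells, and FABP4 spreads from 6.25 to 11.27 over the adipose arrays.

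Most measured members of the collagen processing, unfolded protein response, stress fibre and glycolysis lists were higher in the blood-derived cells, and 14 of 23 sterol synthesis and uptake genes and 6 of 18 glucocorticoid-responsive genes were lower. List counts below use 1 probe set per gene. By that count 831 genes were higher (4.99%), 691 lower (4.15%), and the median log2 difference of all genes was 0.00468. List counts of 1 to 3 leaned on single arrays, since 33 of 78 became 0 and 68 of 78 changed in at least 1 of the 9 fits that leave out an array, whereas none of 27 counts of 4 or more became 0. Of 65 counts of 0, 22 rose above 0 in at least 1 of those fits.

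**Figure D2:**
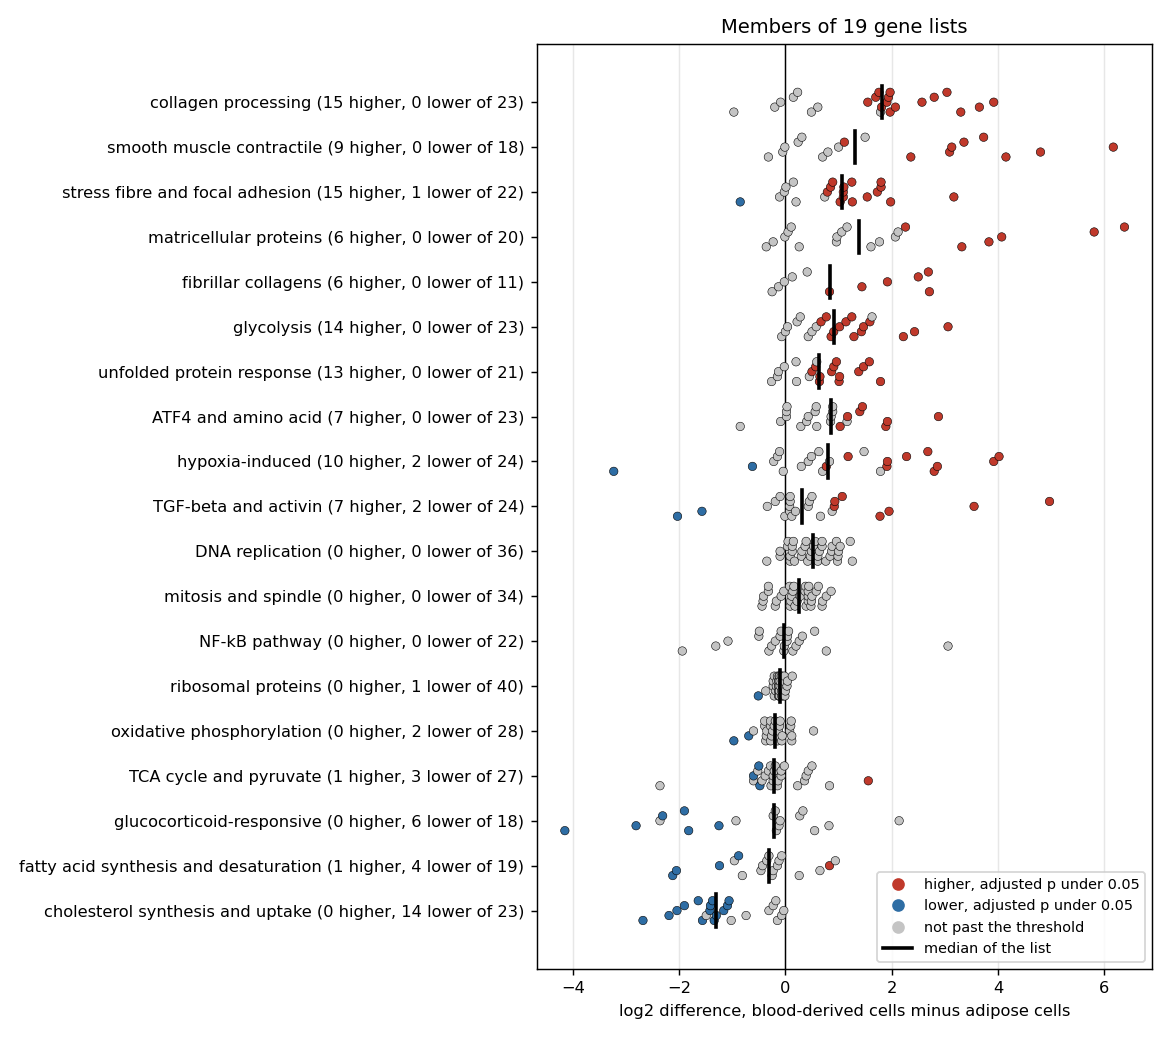
Log2 difference, blood-derived minus adipose cells (horizontal axis), of each measured member of 19 gene lists, coloured by the call at an adjusted p under 0.05, with the list's median as a black bar. Medians run from 1.81 for collagen processing to -1.30 for cholesterol synthesis and uptake, and no member of the DNA replication, mitosis or NF-kB lists is coloured.

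Most fibrillar collagen genes and most genes of collagen processing were higher in the blood-derived cells. Of 11 fibrillar collagen genes 6 were higher and none lower (median log2 difference 0.83), and of 23 collagen processing genes 15 were higher and none lower (median 1.81). The 15 processing genes run from prolyl hydroxylation to cross-linking. Over all alternative fits the number of processing genes called ran from 15 to 17. The mean over the processing list was 8.19 to 8.29 on blood-derived arrays and 6.45 to 6.72 on adipose arrays. On bone marrow arrays, given as levels with no test, it was 7.95 to 8.01. For the fibrillar collagens these means were 6.53 to 6.68, 5.37 to 5.71 and 6.78 to 6.96 in the same order.

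COL1A1, the alpha 1 chain of type I collagen, was at 10.33, 10.51 and 10.56 in blood-derived cells, against 8.44, 7.38 and 8.09 in adipose cells (5.65-fold higher, adjusted p = 0.000965). Its partner chain COL1A2 was at 10.54, 10.88 and 11.08 in blood-derived cells, against 8.61, 7.55 and 8.22 in adipose cells (6.53-fold higher, adjusted p = 0.000875). COL3A1, the chain of type III collagen, was at 9.32, 9.21 and 8.82 in blood-derived cells, against 6.79, 6.42 and 6.05 in adipose cells (6.47-fold higher, adjusted p = 0.000346). The blood-derived arrays of all 3 genes were clear of the adipose arrays, which spread more widely. COL5A2 and COL11A1, chains of the fibril-nucleating types V and XI, were 3.79-fold and 2.71-fold higher. COL5A1 was 1.78-fold higher (adjusted p = 0.0298), a call that ended without any 1 of the blood-derived arrays, adipose replicate 1, adipose replicate 3 or bone marrow replicate 3 (adjusted p 0.05 to 0.0862) and in the fit of the 6 arrays alone (0.0749). COL12A1, a collagen that binds to fibril surfaces, was at 8.48, 7.46 and 7.91 in blood-derived cells, against 3.96, 5.51 and 4.38 in adipose cells (10.1-fold higher, adjusted p = 0.0027). It was the only call among 14 further collagens (7.14%, below the 9.14% of all genes), whose median difference was 0.12.

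Prolyl 4-hydroxylases, which stabilise the collagen triple helix, were all called in the catalytic alpha subunits. P4HA3 was at 9.39, 9.03 and 9.22 in blood-derived cells, against 6.04, 6.56 and 5.93 in adipose cells (8.2-fold higher, adjusted p = 0.000137). P4HA1 was at 11.30, 11.20 and 11.09 in blood-derived cells, against 8.92, 8.07 and 8.20 in adipose cells (6.97-fold higher, adjusted p = 0.000281). P4HA2 was at 11.25, 11.45 and 11.06 in blood-derived cells, against 9.32, 9.04 and 9.66 in adipose cells (3.76-fold higher, adjusted p = 0.000683). All 3 separated the groups completely, and the shared beta subunit P4HB, also known as protein disulfide isomerase, was 3.39-fold higher. The prolyl 3-hydroxylases P3H1 and P3H2 were 3.83-fold and 3.25-fold higher.

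The lysyl hydroxylase PLOD2, which prepares collagen telopeptides for cross-linking, was at 9.41, 9.31 and 9.40 in blood-derived cells, against 5.75, 5.83 and 4.78 in adipose cells (15.1-fold higher, adjusted p = 0.000145). Its relatives PLOD1 and PLOD3 were 3.93-fold and 3.5-fold higher. FKBP10, a prolyl isomerase of the collagen-folding machinery, was at 7.83, 8.12 and 7.97 in blood-derived cells, against 5.96, 5.94 and 6.11 in adipose cells (3.91-fold higher, adjusted p = 0.000145). SERPINH1, the collagen chaperone HSP47, was at 10.80, 10.71 and 10.25 in blood-derived cells, against 6.88, 7.19 and 6.73 in adipose cells (12.6-fold higher, adjusted p = 0.000433). The lowest blood-derived array of these genes lay far above the highest adipose array. Of the extracellular steps, BMP1, the procollagen C-proteinase, was at 8.16, 8.17 and 7.67 in blood-derived cells, against 6.19, 5.74 and 5.86 in adipose cells (4.19-fold higher, adjusted p = 0.000509), and the lysyl oxidase relative LOXL2 was at 8.71, 8.34 and 8.60 in blood-derived cells, against 5.71, 5.10 and 4.94 in adipose cells (9.87-fold higher, adjusted p = 0.000145). LOXL1 and LOXL3 were 2.92-fold and 5.93-fold higher.

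**Figure D3:**
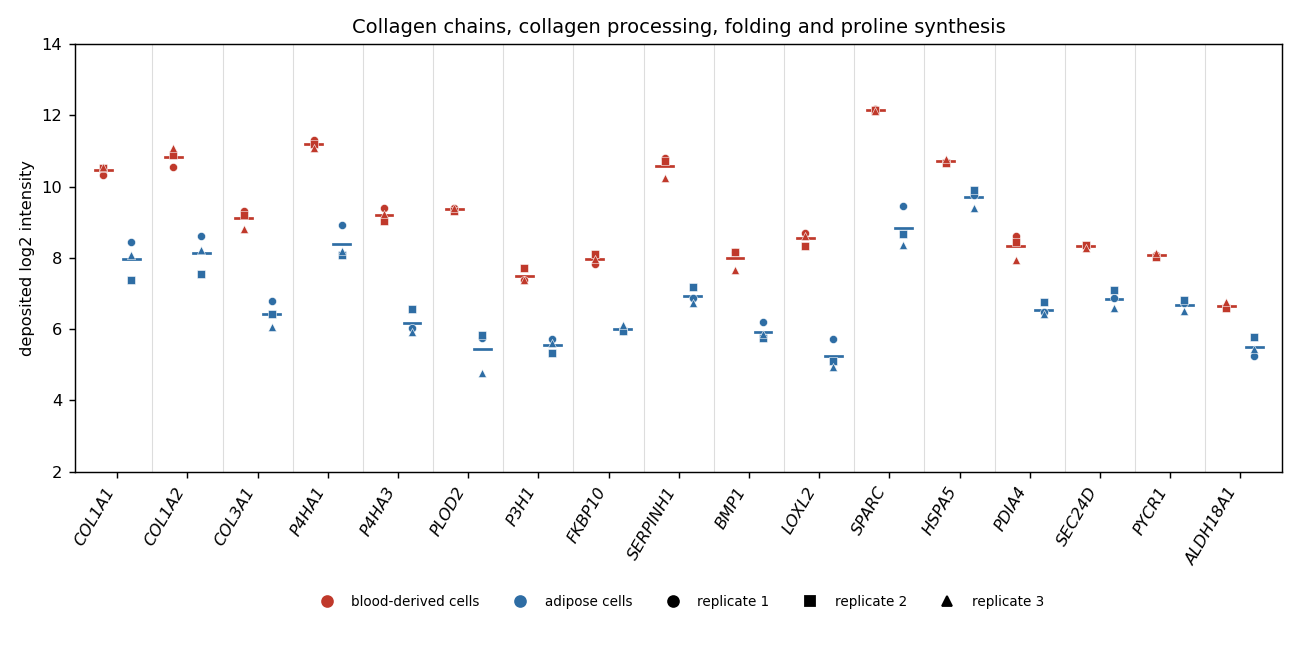
Deposited log2 intensity (vertical axis) on each array for collagen chains, collagen-modifying enzymes, endoplasmic reticulum genes and proline synthesis genes, blood-derived cells in red at the left and adipose cells in blue at the right of each gene, bars for group means. For all 17 genes the 3 blood-derived arrays lie above the 3 adipose arrays, by a group difference of 1.01 (HSPA5) to 3.92 (PLOD2) on the log2 scale.

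General folding and export genes of the endoplasmic reticulum were also higher. Of 21 unfolded protein response genes 13 were higher and none lower (median 0.64). HSPA5, the chaperone BiP, was at 10.68, 10.67 and 10.76 in blood-derived cells, against 9.77, 9.91 and 9.41 in adipose cells (2.01-fold higher, adjusted p = 0.00626). PDIA4, a disulfide isomerase, was at 8.62, 8.45 and 7.95 in blood-derived cells, against 6.47, 6.75 and 6.42 in adipose cells (3.46-fold higher, adjusted p = 0.00134). SEC24D, a coat protein of the vesicles that export procollagen, was at 8.34, 8.36 and 8.28 in blood-derived cells, against 6.87, 7.10 and 6.60 in adipose cells (2.77-fold higher, adjusted p = 0.000802). No array overlapped in these 3 genes. HSP90B1, PDIA6 and CRELD2 were 1.95-fold, 1.88-fold and 2.99-fold higher. Many calls of the list were small, and only 6 members passed a 2-fold rule. The count fell to 8 when blood-derived replicate 2 or adipose replicate 3 was left out and in the fit of the 6 arrays alone. Mean levels of the list were 8.75 to 8.83 on blood-derived, 8.05 to 8.24 on adipose and 8.44 to 8.57 on bone marrow arrays.

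Genes of the ATF4 amino acid response followed, with 7 of 23 higher and none lower (median 0.85). PYCR1, the last enzyme of proline synthesis, was at 8.09, 8.01 and 8.14 in blood-derived cells, against 6.72, 6.82 and 6.50 in adipose cells (2.65-fold higher, adjusted p = 0.000796). ALDH18A1, which starts proline synthesis from glutamate, was at 6.62, 6.59 and 6.77 in blood-derived cells, against 5.26, 5.77 and 5.45 in adipose cells (2.24-fold higher, adjusted p = 0.00304). ATF4, the transcription factor itself, was at 9.76, 9.86 and 10.30 in blood-derived cells, against 8.78, 8.93 and 9.11 in adipose cells (2.05-fold higher, adjusted p = 0.013). The groups did not overlap in any of the 3. ASNS, asparagine synthetase, was 3.79-fold higher (adjusted p = 0.0127, and 0.051 in the 6 arrays alone). PCK2, the mitochondrial carboxykinase that ATF4 also controls in human cells, was 2.95-fold higher. MTHFD2, of the mitochondrial folate cycle, was 2.73-fold higher (adjusted p = 0.0444). That call ended without any 1 of 8 of the 9 arrays, adipose replicate 2 being the exception (adjusted p 0.0529 to 0.129), in the 6 arrays alone (0.107) and with median centring (0.0516). With the 6 arrays alone the list had 4 calls. Its mean was 6.97 to 7.21 on blood-derived, 6.20 to 6.52 on adipose and 6.93 to 7.38 on bone marrow arrays. SLC38A5, an amino acid transporter, was at 9.54, 9.17 and 9.41 in blood-derived cells, against 7.43, 8.39 and 8.01 in adipose cells (2.69-fold higher, adjusted p = 0.0117), 1 of 4 higher among 31 sugar and amino acid carriers.

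Matricellular proteins, secreted modulators of cell and matrix contact, had 6 of 20 members higher and none lower (median 1.39). TNC, tenascin C, was at 9.14, 9.81 and 9.48 in blood-derived cells, against 2.95, 4.04 and 4.02 in adipose cells (56-fold higher, adjusted p = 0.000102). FN1, fibronectin, was at 9.85, 10.09 and 10.80 in blood-derived cells, against 6.50, 5.98 and 6.04 in adipose cells (16.8-fold higher, adjusted p = 0.000145). SPARC, a collagen-binding glycoprotein, was at 12.17, 12.14 and 12.13 in blood-derived cells, against 9.46, 8.66 and 8.37 in adipose cells (9.98-fold higher, adjusted p = 0.000272). The blood-derived arrays of SPARC were nearly equal, and no array of these genes overlapped between the groups. THBS2, a thrombospondin, was at 9.58, 9.41 and 9.34 in blood-derived cells, against 5.47, 4.81 and 6.54 in adipose cells (14.3-fold higher, adjusted p = 0.000846). A further 6 members were at least 2-fold higher without passing the threshold. The list mean was 7.21 to 7.95 on blood-derived, 5.48 to 5.84 on adipose and 7.33 to 7.42 on bone marrow arrays.

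VCAN, the large hyaluronan-binding proteoglycan versican, was measured by 2 probe sets that agreed in direction. Probe set 14987065 was 11.9-fold higher (adjusted p = 6.25e-05), at 11.44, 11.18 and 11.44 in blood-derived cells, against 8.10, 7.43 and 7.82 in adipose cells. Probe set 14987074 was 21.2-fold higher (adjusted p = 5.61e-05). BGN, the small proteoglycan biglycan, was at 10.53, 10.40 and 10.57 in blood-derived cells, against 8.85, 8.65 and 8.53 in adipose cells (3.53-fold higher, adjusted p = 0.000397). HAS2, which makes hyaluronan, was at 6.25, 9.44 and 8.89 in blood-derived cells, against 4.08, 4.58 and 4.33 in adipose cells (14.6-fold higher, adjusted p = 0.0151), with replicate 1 far below the other blood-derived arrays. Its call ended without blood-derived replicate 3 (0.0546) and in the 6 arrays alone (0.0591). In the proteoglycan list as a whole 3 of 24 were called (median 0.14), and 5 without adipose replicate 1.

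Elastic fibre genes had 5 of 17 members higher and 1 lower. LTBP1, which stores latent TGF-beta in the matrix, was at 9.23, 10.01 and 10.55 in blood-derived cells, against 7.49, 5.62 and 6.24 in adipose cells (11.2-fold higher, adjusted p = 0.00521). FBLN2, fibulin 2, was at 8.42, 8.57 and 8.42 in blood-derived cells, against 6.80, 6.63 and 6.80 in adipose cells (3.31-fold higher, adjusted p = 0.000205). FBLN5, a fibulin needed for elastic fibre assembly in mice, was lower. It was at 4.18, 4.08 and 3.84 in blood-derived cells, against 6.65, 5.53 and 6.23 in adipose cells (4.29-fold lower, adjusted p = 0.00378). EFEMP2, a further fibulin gene, was among the 5 higher members. The higher count fell to 3 without blood-derived replicate 2 or 3 and to 2 in the 6 arrays alone.

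Basement membrane genes differed in both directions, with 3 of 21 higher and 2 lower (median 0.02). The laminin alpha chains showed the widest contrast. LAMA4, of vessel and stromal laminins, was at 8.94, 7.17 and 8.86 in blood-derived cells, against 4.40, 6.03 and 4.89 in adipose cells (9.3-fold higher, adjusted p = 0.0114). LAMA2, of the laminins of muscle and nerve, was at 5.48, 4.56 and 4.70 in blood-derived cells, against 9.46, 8.48 and 8.98 in adipose cells (16.7-fold lower, adjusted p = 0.000272). Replicate 2 was the lowest blood-derived and the highest adipose array for LAMA4, yet the groups stayed apart in both genes. With the 6 arrays alone 1 member was higher.

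Smooth muscle contractile genes had 9 of 18 members higher and none lower (median 1.31), and stress fibre and focal adhesion genes 15 of 22 higher and 1 lower (median 1.06). TAGLN, the actin-binding protein SM22, was at 11.30, 11.32 and 11.65 in blood-derived cells, against 6.67, 7.63 and 5.58 in adipose cells (27.8-fold higher, adjusted p = 0.000628). CNN1, calponin, was at 8.81, 8.64 and 8.61 in blood-derived cells, against 5.92, 4.95 and 5.80 in adipose cells (8.78-fold higher, adjusted p = 0.00135). MYL9, the regulatory myosin light chain, was at 11.74, 11.26 and 11.96 in blood-derived cells, against 8.26, 8.35 and 7.17 in adipose cells (13.3-fold higher, adjusted p = 0.000572). These 3 genes were tightly grouped in the blood-derived cells and looser in the adipose cells, with no overlap. TPM1, tropomyosin, was at 11.87, 11.70 and 12.07 in blood-derived cells, against 8.76, 9.38 and 8.23 in adipose cells (8.51-fold higher, adjusted p = 0.000525). DES, the intermediate filament protein desmin, was at 10.02, 8.41 and 8.68 in blood-derived cells, against 4.92, 4.77 and 4.96 in adipose cells (17.7-fold higher, adjusted p = 0.000711), and its bone marrow mean was 5.38 ± 0.31 (SD, n = 3). KCNMB1, a potassium channel subunit of smooth muscle, was 5.13-fold higher. The mean over the smooth muscle list was 8.02 to 8.23 on blood-derived arrays and 5.76 to 6.38 on adipose arrays. On bone marrow arrays it was 7.85 to 8.20. For the stress fibre list these means were 7.20 to 7.32, 6.16 to 6.39 and 7.13 to 7.31 in the same order.

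ACTA2, smooth muscle alpha actin, was at 12.92, 12.72 and 12.89 in blood-derived cells, against 10.94, 9.78 and 7.74 in adipose cells (10.2-fold higher, adjusted p = 0.0194). The adipose arrays differed widely, with replicate 3 the lowest. The call ended without any 1 of the blood-derived arrays (0.0584 to 0.0613) and in the 6 arrays alone (0.0725). None of the 11 pericyte markers was called by limma with all arrays in the fit (1 at an unadjusted p under 0.05), and the median of that list was -0.09. The count was 2 higher without blood-derived replicate 3 and 1 lower without adipose replicate 3, and 2 uncalled markers were at least 2-fold higher and 1 at least 2-fold lower. Pericytes share contractile genes with myofibroblasts, and the part of either cell type in these values was not tested.

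Among focal adhesion genes ACTN1, the cross-linking actinin, was at 7.70, 7.38 and 7.62 in blood-derived cells, against 5.58, 5.95 and 5.25 in adipose cells (3.94-fold higher, adjusted p = 0.00143). PDLIM7, a stress-fibre adaptor, was at 10.06, 9.72 and 9.64 in blood-derived cells, against 8.21, 8.18 and 8.41 in adipose cells (2.9-fold higher, adjusted p = 0.000891). ILK, integrin-linked kinase, was at 10.32, 10.60 and 10.62 in blood-derived cells, against 9.26, 9.51 and 9.48 in adipose cells (2.15-fold higher, adjusted p = 0.00337). The groups were apart in each. LIMS1, the partner of ILK in the cell, PALLD, palladin, and FHL3, a LIM-domain protein, were 2.39-fold, 3.49-fold and 2.37-fold higher. FHL2, a relative of FHL3, was 9-fold higher, and FLNA, filamin A, was 1.8-fold higher. Of the 15 cofactors and regulators of the serum response factor, the transcription factor that drives many contractile genes, 1 was called, CFL1, cofilin, at 1.65-fold higher (adjusted p = 0.0368). The CFL1 call ended without any 1 of 8 of the 9 arrays, adipose replicate 2 being the exception (0.0559 to 0.113), in the 6 arrays alone (0.104) and with median centring (0.0554).

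Integrins had 5 of 19 subunits higher and 1 lower (median 0.29). ITGB1, the beta subunit shared by collagen and fibronectin receptors, was at 9.91, 10.13 and 10.22 in blood-derived cells, against 8.58, 8.43 and 8.63 in adipose cells (2.92-fold higher, adjusted p = 0.0013). ITGA5, the fibronectin receptor alpha chain, was at 7.27, 8.21 and 7.38 in blood-derived cells, against 5.81, 5.45 and 5.24 in adipose cells (4.34-fold higher, adjusted p = 0.00314). Neither overlapped between the groups. The count fell to 3 without blood-derived replicate 3 and to 2 in the 6 arrays alone. The cell-cell adhesion gene CDH2, N-cadherin, was at 6.11, 7.52 and 7.46 in blood-derived cells, against 3.66, 3.38 and 3.27 in adipose cells (12.1-fold higher, adjusted p = 0.000894), and its bone marrow mean was 4.92 ± 0.16 (SD, n = 3). CDH11, the cadherin of mesenchyme, was at 7.68, 6.88 and 7.17 in blood-derived cells, against 5.16, 5.32 and 4.88 in adipose cells (4.35-fold higher, adjusted p = 0.00137). ALCAM, an adhesion molecule of stromal cells, was at 8.98, 9.49 and 9.77 in blood-derived cells, against 7.31, 7.31 and 6.54 in adipose cells (5.14-fold higher, adjusted p = 0.00265).

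TGF-beta genes were called in both directions. Of 24 genes 7 were higher and 2 lower (median 0.31). TGFB1 was at 7.52, 7.21 and 8.10 in blood-derived cells, against 6.27, 5.71 and 5.51 in adipose cells (3.42-fold higher, adjusted p = 0.00705). TGFB3 was at 7.23, 8.03 and 7.81 in blood-derived cells, against 3.99, 4.08 and 4.35 in adipose cells (11.7-fold higher, adjusted p = 0.000272). INHBA, the subunit of activin A, was at 10.55, 9.24 and 9.24 in blood-derived cells, against 4.40, 5.04 and 4.66 in adipose cells (31.4-fold higher, adjusted p = 0.000219). All 3 ligand genes were clear of the adipose arrays. TGFBR2, the receptor that binds the ligand first, was at 4.71, 5.30 and 4.80 in blood-derived cells, against 7.09, 6.82 and 7.0 in adipose cells (4.09-fold lower, adjusted p = 0.00127). TGFBR3, the co-receptor betaglycan, was at 4.48, 4.66 and 4.46 in blood-derived cells, against 6.71, 5.51 and 6.09 in adipose cells (2.97-fold lower, adjusted p = 0.0124). Both were lower on every blood-derived array, while the co-receptor ENG, given above, was higher. SKIL, a transcriptional repressor that TGF-beta induces and that limits its signal, was 3.87-fold higher.

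Among 24 BMP genes none was higher and BMP5, a ligand, was lower, at 3.20, 3.63 and 3.51 in blood-derived cells, against 5.19, 5.30 and 5.87 in adipose cells (4.02-fold lower, adjusted p = 0.0016). Of 38 Wnt genes 3 were higher and none lower (7.89%, and 4.17% for the BMP genes, both below the 9.14% of all genes). DKK3, a secreted relative of Wnt antagonists, was at 8.49, 8.0 and 8.06 in blood-derived cells, against 5.05, 5.05 and 4.40 in adipose cells (10.2-fold higher, adjusted p = 0.000795). FZD6, a Wnt receptor, was at 6.78, 7.05 and 6.75 in blood-derived cells, against 3.55, 4.55 and 3.23 in adipose cells (8.48-fold higher, adjusted p = 0.00089). WNT5B, a ligand, was 2.92-fold higher (adjusted p = 0.0129, and 0.0523 in the 6 arrays alone). No gene was called among 14 of the Notch pathway or 12 of the Hedgehog pathway, where 2 and 0 had an unadjusted p under 0.05. Of 22 genes on a list for the YAP and TEAD regulators, which holds targets and also TEAD2 itself, 3 were higher and 1 lower (18.2%). The higher count was 5 without adipose replicate 2. TEAD2, a transcription factor of that pathway, was at 6.85, 7.34 and 7.06 in blood-derived cells, against 5.68, 5.41 and 5.25 in adipose cells (3.12-fold higher, adjusted p = 0.00101). ANKRD1, a classical target, was at 11.57, 8.17 and 11.93 in blood-derived cells, against 4.18, 5.07 and 4.43 in adipose cells (63.9-fold higher, adjusted p = 0.00612), with blood-derived replicate 2 far below the other two.

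Among growth factor lists, 4 of 25 fibroblast growth factor genes were higher and none lower (16%), 2 of 14 EGF family genes were higher and none lower (14.3%), and of 13 genes of the PDGF, KIT ligand and CSF1 list 1 was higher and 2 were lower (23.1%). FGF5 was at 8.35, 9.06 and 8.52 in blood-derived cells, against 3.99, 2.95 and 3.31 in adipose cells (37.5-fold higher, adjusted p = 0.000102), and FGF2 at 8.11, 8.27 and 8.17 in blood-derived cells, against 7.0, 7.35 and 6.74 in adipose cells (2.23-fold higher, adjusted p = 0.0119). HBEGF, an EGF receptor ligand, was at 7.63, 8.26 and 8.17 in blood-derived cells, against 4.08, 4.16 and 3.66 in adipose cells (16.6-fold higher, adjusted p = 0.000145). The 4 higher members of the fibroblast growth factor list were FGF2, FGF5, FGF21 and ETV4, a transcription factor, and the count was 2 when blood-derived replicate 3 or adipose replicate 1 or 3 was left out and in the 6 arrays alone. The EGF family count was 1 in the 6 arrays alone and without blood-derived replicate 1 or 2 or any 1 of the adipose arrays. PDGFC was at 7.15, 8.07 and 7.43 in blood-derived cells, against 4.81, 5.03 and 4.23 in adipose cells (7.25-fold higher, adjusted p = 0.000917), whereas PDGFRL, a receptor-like protein, was at 4.01, 4.88 and 5.34 in blood-derived cells, against 8.76, 7.20 and 8.25 in adipose cells (10-fold lower, adjusted p = 0.00457). PDGFRA, the receptor of stromal cells that binds PDGFC, was at 4.52, 6.69 and 5.77 in blood-derived cells, against 8.11, 8.01 and 8.34 in adipose cells (5.63-fold lower, adjusted p = 0.0143). Its call ended without adipose replicate 3 (0.0521) and in the 6 arrays alone (0.0598).

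The insulin-like growth factor list had 4 of 17 members higher and 1 lower. The binding protein IGFBP3 was at 9.0, 10.80 and 8.74 in blood-derived cells, against 6.11, 5.36 and 5.81 in adipose cells (13.5-fold higher, adjusted p = 0.00338). IGFBP2, another binding protein, was at 9.58, 8.47 and 10.19 in blood-derived cells, against 6.19, 5.25 and 5.29 in adipose cells (14.3-fold higher, adjusted p = 0.00257). IGF1R, the receptor, was 1.97-fold higher, and IGF2R, the clearance receptor, 2.14-fold lower. Neurotrophins and neuronal adhesion genes had 6 of 35 higher and 1 lower (median 0.01). BDNF, brain-derived neurotrophic factor, was at 9.68, 8.89 and 9.08 in blood-derived cells, against 5.26, 5.72 and 5.01 in adipose cells (14.7-fold higher, adjusted p = 0.000243). SLITRK4, a transmembrane protein of neurons, was at 7.28, 7.29 and 6.78 in blood-derived cells, against 3.14, 3.56 and 3.16 in adipose cells (14.2-fold higher, adjusted p = 0.000163). PCDH7, a protocadherin, was 3.85-fold higher. In the bone marrow cells FGF5, BDNF, SLITRK4 and IGFBP3 had means of 3.86 ± 0.21, 6.08 ± 0.39, 3.05 ± 0.46 and 5.46 ± 0.14 (SD, n = 3).

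Angiogenic factors were divided. Of 18 genes of the VEGF, HGF and angiopoietin list 4 were higher and 3 lower (median -0.20). VEGFA, the principal endothelial growth factor, was at 6.14, 7.09 and 6.59 in blood-derived cells, against 4.76, 4.07 and 5.24 in adipose cells (3.78-fold higher, adjusted p = 0.0111). VEGFC, a lymphatic growth factor, was at 10.45, 10.86 and 10.74 in blood-derived cells, against 9.27, 8.22 and 9.35 in adipose cells (3.33-fold higher, adjusted p = 0.00948). VEGFD, which binds the same receptors as VEGFC in humans, was at 4.32, 4.08 and 3.60 in blood-derived cells, against 10.71, 9.40 and 10.50 in adipose cells (73.4-fold lower, adjusted p = 0.000106). Of the ligands, VEGFA and VEGFC were thus above and VEGFD below all adipose arrays on every blood-derived array. FLT1, a receptor that captures VEGFA, was at 5.11, 4.76 and 4.29 in blood-derived cells, against 6.18, 7.24 and 6.48 in adipose cells (3.77-fold lower, adjusted p = 0.00914), and ANGPTL1, an angiopoietin-like secreted protein, was 4.01-fold lower. The higher count fell to 2 when blood-derived replicate 2 or 3 or adipose replicate 3 was left out and in the 6 arrays alone, and the lower count became 5 without adipose replicate 2.

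Vasoactive peptides and receptors had 3 of 24 members higher and 3 lower. EDN1, the vasoconstrictor endothelin 1, was at 10.63, 9.17 and 10.49 in blood-derived cells, against 4.89, 4.06 and 5.03 in adipose cells (43.3-fold higher, adjusted p = 0.000296). BDKRB1, the inducible bradykinin receptor, was at 9.21, 8.91 and 8.83 in blood-derived cells, against 5.27, 5.35 and 5.48 in adipose cells (12.3-fold higher, adjusted p = 0.000505). NPR3, the clearance receptor of natriuretic peptides, was at 9.59, 7.49 and 7.37 in blood-derived cells, against 3.86, 4.94 and 3.91 in adipose cells (15.1-fold higher, adjusted p = 0.00733). The lower members were AGTR1, the angiotensin II receptor, ADM, the vasodilator adrenomedullin, and AVPR1A, a vasopressin receptor. AGTR1 was at 3.56, 2.43 and 2.65 in blood-derived cells, against 9.33, 8.11 and 9.51 in adipose cells (68.7-fold lower, adjusted p = 0.000155). ADM was at 7.27, 5.36 and 5.47 in blood-derived cells, against 9.68, 8.81 and 9.30 in adipose cells (9.41-fold lower, adjusted p = 0.00827). AVPR1A was 3-fold lower (adjusted p = 0.006).

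**Figure D4:**
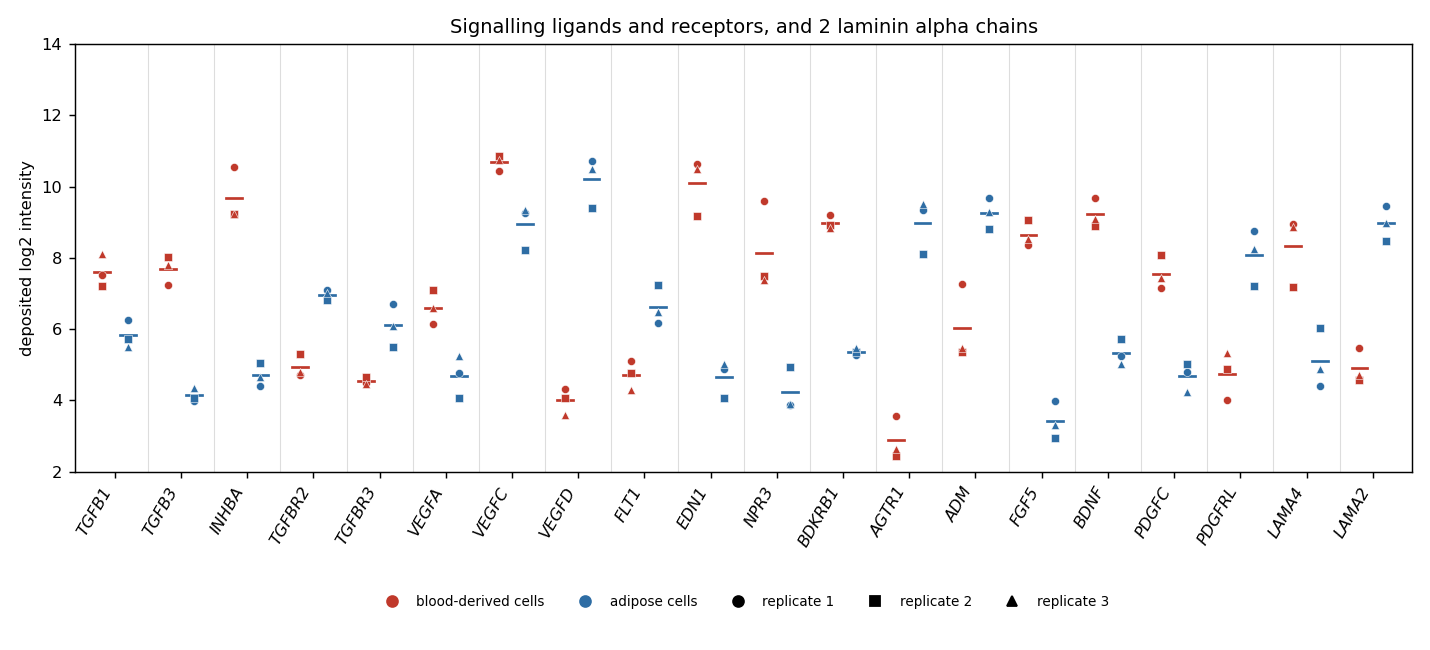
Deposited log2 intensity (vertical axis) on each array for ligands and receptors of TGF-beta, VEGF, vasoactive, FGF, neurotrophin and PDGF signalling and for 2 laminin chains, blood-derived cells in red at the left and adipose cells in blue at the right of each gene, bars for group means. TGFB1, TGFB3 and INHBA are higher and TGFBR2 and TGFBR3 lower in the blood-derived cells, VEGFA and VEGFC are higher and VEGFD lower, and LAMA4 is higher and LAMA2 lower.

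Glycolytic genes were mostly higher in the blood-derived cells. Of 23 genes 14 were higher and none lower (median 0.91). SLC2A1, the glucose importer GLUT1, was at 7.68, 7.46 and 7.23 in blood-derived cells, against 6.25, 6.32 and 5.94 in adipose cells (2.44-fold higher, adjusted p = 0.0024). PGK1, phosphoglycerate kinase, was at 12.26, 12.29 and 12.08 in blood-derived cells, against 10.70, 10.83 and 10.80 in adipose cells (2.69-fold higher, adjusted p = 0.000281). SLC16A3, the lactate exporter MCT4, was at 8.99, 8.83 and 9.07 in blood-derived cells, against 6.50, 5.36 and 5.86 in adipose cells (8.33-fold higher, adjusted p = 0.00115). No array overlapped in the uptake, kinase or export gene. ALDOA, TPI1, GAPDH, PGAM1, PKM and LDHA, enzymes of the steps between, were 2.2-fold, 2.38-fold, 1.59-fold, 4.67-fold, 2.76-fold and 1.88-fold higher. GAPDH, often used as a loading control, was at 12.85, 12.96 and 12.92 in blood-derived cells, against 12.19, 12.26 and 12.26 in adipose cells (adjusted p = 0.00689). The count of the list ran from 12 to 17 over the alternative fits and was 10 with a 2-fold rule. Its mean was 8.51 to 8.65 on blood-derived, 7.42 to 7.67 on adipose and 8.42 to 8.59 on bone marrow arrays.

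Hypoxia-induced genes had 10 of 24 members higher and 2 lower (median 0.80), and 3 of the 10, P4HA1, P4HA2 and PLOD2, also belong to the collagen processing list. CA9, a carbonic anhydrase, was at 10.47, 10.06 and 9.35 in blood-derived cells, against 6.13, 6.13 and 5.55 in adipose cells (16.3-fold higher, adjusted p = 0.000205). BNIP3, which directs mitochondria to autophagy, was at 11.92, 11.84 and 11.27 in blood-derived cells, against 8.92, 8.76 and 8.79 in adipose cells (7.25-fold higher, adjusted p = 0.000205). The hydroxylase EGLN3 was 6.41-fold higher (adjusted p = 0.0125, and 0.0544 in the 6 arrays alone), while its relative EGLN1 was 1.53-fold lower (adjusted p = 0.0341). The EGLN1 call ended without any 1 of the 6 arrays compared or bone marrow replicate 2 (0.0509 to 0.107) and in the 6 arrays alone (0.076). The other lower member was ADM, given above among the vasoactive peptides, with a log2 difference of -3.23, the lowest of the list. The list had 6 higher calls in the 6 arrays alone. Its mean was 7.47 to 7.59 on blood-derived, 6.21 to 6.63 on adipose and 7.52 to 7.62 on bone marrow arrays.

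The oxidative phosphorylation and the tricarboxylic acid cycle and pyruvate lists had most of their calls on the lower side. Of 28 oxidative phosphorylation genes none was higher and 2 were lower (7.14%, below the 9.14% of all genes, median -0.20), with 22 of 28 differences below 0. The 2 were subunits of complex I. NDUFB3 was at 9.28, 9.48 and 9.48 in blood-derived cells, against 10.16, 10.60 and 10.38 in adipose cells (1.95-fold lower, adjusted p = 0.00543), and NDUFA6 was 1.61-fold lower. Of 27 tricarboxylic acid cycle and pyruvate genes 1 was higher, PCK2, and 3 lower (14.8%, median -0.21). The 3 lower genes were IDH1 and IDH3G, isocitrate dehydrogenases, and SDHA of succinate dehydrogenase. The list's lower count was 0 in the 6 arrays alone and without any 1 of the blood-derived or bone marrow arrays, and 1 without adipose replicate 3.

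Genes of cholesterol synthesis and uptake were mostly lower in the blood-derived cells than in the adipose cells. Of 23 genes of sterol synthesis and uptake 14 were lower and none higher (median -1.30), and all 23 differences were below 0. HSD17B7, a late reductase of the pathway, was at 7.26, 7.03 and 6.63 in blood-derived cells, against 8.86, 9.69 and 10.41 in adipose cells (6.41-fold lower, adjusted p = 0.00584). CYP51A1, the lanosterol demethylase, was at 8.79, 8.76 and 8.61 in blood-derived cells, against 9.72, 10.45 and 10.90 in adipose cells (3.11-fold lower, adjusted p = 0.00903). SC5D, which introduces a double bond late in the pathway, was at 8.31, 8.18 and 8.16 in blood-derived cells, against 9.17, 9.92 and 10.23 in adipose cells (2.94-fold lower, adjusted p = 0.011). The blood-derived arrays were close together, whereas the adipose arrays spread, with replicate 1 the lowest and replicate 3 the highest in these genes. STARD4, a sterol transfer protein, was at 4.18, 4.60 and 4.35 in blood-derived cells, against 5.77, 6.23 and 5.38 in adipose cells (2.67-fold lower, adjusted p = 0.00903). INSIG1, which holds back sterol-regulated transcription, was at 5.92, 5.77 and 5.42 in blood-derived cells, against 6.95, 8.06 and 8.68 in adipose cells (4.57-fold lower, adjusted p = 0.0146). The INSIG1 call ended without blood-derived replicate 3 (0.0539) and in the 6 arrays alone (0.0535).

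The mean over the 23 genes was 7.08, 7.11 and 6.89 on the blood-derived arrays, against 7.79, 8.14 and 8.59 on the adipose arrays. On the bone marrow arrays it was 6.95, 7.08 and 7.10. The number of calls in this list leaned on single arrays. It was 8, 8 and 7 without blood-derived replicates 1, 2 and 3, 9 without adipose replicate 3, 8, 8 and 9 without bone marrow replicates 1, 2 and 3, and 4 in the 6 arrays alone. The median ran from -1.41 to -0.99 over the fits.

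**Figure D5:**
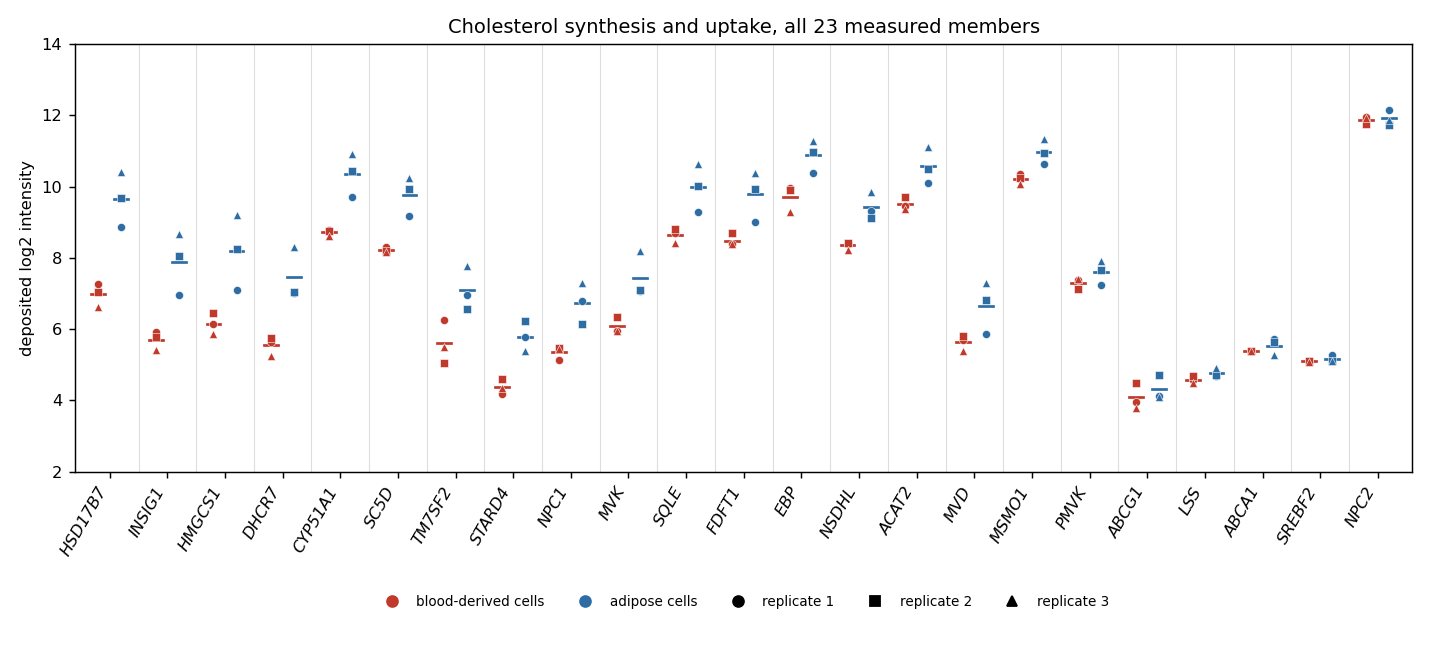
Deposited log2 intensity (vertical axis) on each array of all 23 measured cholesterol synthesis and uptake genes, ordered from the largest difference to the smallest, blood-derived cells in red at the left and adipose cells in blue at the right of each gene, bars for group means, symbols for replicates. The blood-derived arrays of a gene sit close together, and adipose replicate 3 (triangles) is the highest array for most of the genes with a large difference.

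Fatty acid synthesis and adipogenic lists had fewer calls in the same direction. Of 19 fatty acid synthesis genes 4 were lower and 1 higher (median -0.31). ACSL4, which activates polyunsaturated fatty acids, was at 8.11, 8.87 and 7.76 in blood-derived cells, against 10.32, 10.32 and 10.44 in adipose cells (4.34-fold lower, adjusted p = 0.00272). ELOVL6, a fatty acid elongase, was at 5.49, 5.56 and 5.44 in blood-derived cells, against 6.68, 8.06 and 7.90 in adipose cells (4.14-fold lower, adjusted p = 0.00817). Of 27 adipogenic and lipid storage genes 5 were lower and 1 higher (median -0.08). PPARG, the adipogenic master regulator, was at 3.91, 3.51 and 3.88 in blood-derived cells, against 5.10, 6.90 and 6.66 in adipose cells (5.49-fold lower, adjusted p = 0.0242), with adipose replicate 1 the lowest of its group. That call ended without any 1 of the blood-derived arrays, adipose replicate 2 or adipose replicate 3 (0.0624 to 0.0815). EBF2, a transcription factor of adipocyte precursors, was at 3.72, 3.99 and 4.15 in blood-derived cells, against 5.65, 5.17 and 5.43 in adipose cells (2.75-fold lower, adjusted p = 0.002). The adipogenic count was 2 without any 1 of the blood-derived arrays and in the 6 arrays alone, and 3 without adipose replicate 3. The lower count of the synthesis list was 2 without blood-derived replicates 2 or 3, adipose replicate 3 or bone marrow replicates 1 or 2, and in the 6 arrays alone. ACADM, which starts the oxidation of medium-chain fatty acids, was 2.86-fold lower (adjusted p = 0.000808), and among 21 oxidation genes 2 were lower and 2 higher.

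Genes that glucocorticoids induce were lower in part. Of 18 genes 6 were lower and none higher, with a median of -0.21. The list mean was 5.44 to 5.87 on blood-derived and 6.22 to 6.86 on adipose arrays, and 5.55 on each bone marrow array. FKBP5, a co-chaperone of the glucocorticoid receptor, was at 5.38, 7.05 and 6.48 in blood-derived cells, against 10.60, 10.42 and 10.34 in adipose cells (17.7-fold lower, adjusted p = 0.000515). TSC22D3, the anti-inflammatory mediator GILZ, was at 4.83, 4.95 and 5.11 in blood-derived cells, against 6.51, 5.80 and 6.33 in adipose cells (2.38-fold lower, adjusted p = 0.00926). ZBTB16, a zinc finger repressor, was at 4.79, 4.84 and 4.57 in blood-derived cells, against 7.11, 6.15 and 6.65 in adipose cells (3.74-fold lower, adjusted p = 0.00241). Every blood-derived array was below every adipose array in these genes. CRISPLD2, MAOA and GLUL, a secreted protein, monoamine oxidase A and glutamine synthetase, were 4.96-fold, 3.54-fold and 7-fold lower, and the GLUL call ended without blood-derived replicate 2 (0.0543). PER1, KLF9 and the receptor NR3C1, members of the list looked at after the values were seen, had differences of -0.12, -0.10 and 0.27 and adjusted p of 0.652, 0.728 and 0.453.

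Detoxifying genes had 4 of 26 lower and 1 higher (median -0.39), with 7 lower once dim probe sets were left out. EPHX1, an epoxide hydrolase, was at 4.99, 5.73 and 5.06 in blood-derived cells, against 10.12, 8.37 and 8.10 in adipose cells (12.1-fold lower, adjusted p = 0.00458). GPX3, the secreted glutathione peroxidase, was at 4.33, 4.65 and 4.61 in blood-derived cells, against 9.08, 7.74 and 7.68 in adipose cells (12.4-fold lower, adjusted p = 0.0116). CAT, catalase, was at 6.15, 6.0 and 6.14 in blood-derived cells, against 9.28, 7.74 and 7.86 in adipose cells (4.58-fold lower, adjusted p = 0.00994). In all 3 adipose replicate 1 was the highest array. ALDH1A1, which makes retinoic acid, was at 4.36, 3.35 and 3.63 in blood-derived cells, against 10.90, 8.58 and 10.64 in adipose cells (76.6-fold lower, adjusted p = 0.00207), in a retinoid list with 2 of 20 members lower and 1 higher. HPGD, which degrades prostaglandins, was at 2.92, 2.80 and 2.80 in blood-derived cells, against 6.52, 4.49 and 6.18 in adipose cells (7.42-fold lower, adjusted p = 0.00903). It was the only call among 21 prostaglandin and leukotriene genes (4.76%, below the 9.14% of all genes).

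Inflammatory lists were called in both directions, at shares on either side of the 9.14% of all genes. No NF-kB gene of 22 was called by limma (6 at an unadjusted p under 0.05, and 1 higher and 2 lower in the fit without bone marrow replicate 3). Of 17 chemokines 1 was higher and 2 lower (17.6%), and of 32 interleukin, TNF and acute phase genes 2 were higher and 3 lower (15.6%). Of 20 complement genes 1 was called, of 26 interferon-stimulated genes 2 (7.69%) and of 18 antigen presentation genes 1 (5.56%), and the counts of the last 2 lists grew to 6 and 5 without bone marrow replicate 3. IL11, a stromal cytokine, was at 8.74, 10.18 and 8.67 in blood-derived cells, against 5.49, 5.51 and 5.78 in adipose cells (12.1-fold higher, adjusted p = 0.00111). IL18, a cytokine processed by inflammasomes, was at 9.0, 8.20 and 9.61 in blood-derived cells, against 5.65, 6.82 and 5.45 in adipose cells (7.81-fold higher, adjusted p = 0.00513). OSMR, the oncostatin M receptor, was at 4.90, 4.77 and 4.35 in blood-derived cells, against 6.23, 6.64 and 6.28 in adipose cells (3.28-fold lower, adjusted p = 0.00129). IL6ST, the signalling subunit gp130 shared by the IL6 family, was at 7.92, 8.12 and 8.37 in blood-derived cells, against 9.55, 9.81 and 9.78 in adipose cells (2.99-fold lower, adjusted p = 0.000757). IL11, which signals through gp130, and IL18 were above, and both receptor genes below, all adipose arrays.

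Bone marrow replicate 3 stood apart in interferon-stimulated genes and entered the spread behind these tests. The mean over the 26 genes was 8.33 on that array, 5.61 and 5.66 on the other bone marrow arrays, 5.19, 4.99 and 5.04 on the blood-derived arrays and 5.43, 5.27 and 5.58 on the adipose arrays. Without it 5 interferon-stimulated genes were lower in place of 1, 5 antigen presentation genes in place of 1 and 5 interleukin, TNF and acute phase genes in place of 3. USP18, which removes the ISG15 modifier, was at 3.30, 3.76 and 3.61 in blood-derived cells, against 7.92, 6.46 and 8.23 in adipose cells (15.8-fold lower, adjusted p = 0.0366), and its adjusted p without that array was 0.00329. It lost its call without any 1 of the blood-derived arrays or adipose replicate 1 or 3 (0.0907 to 0.115). PSMB8, PSMB9 and PSMB10, the immunoproteasome subunits, had log2 differences of -2.42, -2.06 and -1.73. Their adjusted p were 0.263, 0.204 and 0.16 with all arrays and 0.00616, 0.00329 and 0.0088 without bone marrow replicate 3. These 3 were picked for naming once their values had been seen.

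Proteases and their inhibitors were called in both directions, against 9.14% of all genes called. Of 32 metalloproteinase genes 3 were higher and 1, MMP3, lower (median 0.04), and 3 lower without adipose replicate 2, 12.5% with all arrays. Of 18 proteinase inhibitors 3 were higher and 2 lower (27.8%, median 0.10), and of 15 plasminogen and coagulation genes 1 was higher and 2 lower (20%, median -0.03). The lower count of each of these lists was 1 in the 6 arrays alone and without any 1 of several arrays. ADAM12, a metalloproteinase of growing mesenchyme, was at 5.78, 6.31 and 6.09 in blood-derived cells, against 4.24, 4.33 and 3.92 in adipose cells (3.72-fold higher, adjusted p = 0.00117), and ADAMTS6, a secreted one, was 4.94-fold higher. TIMP1, a metalloproteinase inhibitor, was at 13.03, 13.04 and 13.04 in blood-derived cells, against 11.82, 12.02 and 11.82 in adipose cells (2.22-fold higher, adjusted p = 0.00115). TIMP2, a related inhibitor, was at 10.30, 10.16 and 9.54 in blood-derived cells, against 11.18, 11.11 and 11.25 in adipose cells (2.27-fold lower, adjusted p = 0.0105). The inhibitors thus differed in opposite directions with no overlap. PLAUR, the urokinase receptor, was at 9.38, 9.77 and 9.61 in blood-derived cells, against 6.88, 7.41 and 7.82 in adipose cells (4.65-fold higher, adjusted p = 0.00293), and SERPINE2, an inhibitor of thrombin and urokinase, was 7.49-fold higher. F2RL2, a thrombin receptor, was at 5.60, 5.25 and 5.01 in blood-derived cells, against 9.99, 10.12 and 9.98 in adipose cells (26.8-fold lower, adjusted p = 3.23e-05). Of 24 lysosomal genes CTSB and CTSF were higher and CTSK and CTSS lower, all cathepsins, and the CTSF call (2.48-fold higher, adjusted p = 0.00441) was the only one of the 4 to hold without any 1 array. Of 29 proteasome genes 3 were higher, and 5 without adipose replicate 2.

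No mitosis or DNA replication gene was called by limma with all arrays in the fit, though most of their differences were above 0. Of 34 mitosis and spindle genes none had an unadjusted p under 0.05, and 25 differences were above 0 (median 0.25). Of 36 DNA replication genes 12 had an unadjusted p under 0.05, against 4001 of all 16789 probe sets naming 1 gene. The differences of 33 of the 36 were above 0 (median 0.51), and 8 were called higher in the fit without adipose replicate 2. The mean over the mitosis list was 6.68, 7.51 and 6.79 on the blood-derived arrays, against 5.83, 7.82 and 6.66 on the adipose arrays, so that the groups overlapped and replicate 2 was the highest of each. On the bone marrow arrays it was 4.97, 5.20 and 4.86. The median of the mitosis list ran from -0.19 to 0.84 over the fits. Among 18 cyclins and inhibitors 4 were higher and 1 lower (27.8%, against 9.14% of all genes). CCND1, cyclin D1 of the first growth phase, was at 8.91, 9.46 and 8.98 in blood-derived cells, against 6.03, 7.51 and 7.22 in adipose cells (4.59-fold higher, adjusted p = 0.0138), a call that ended without blood-derived replicate 2 (0.0538). E2F5, a transcription factor of the cell cycle, was 2.33-fold higher. The higher count of that list was 2 without blood-derived replicate 2 and in the 6 arrays alone.

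Genes of the basic machinery differed little between the groups. Of 40 ribosomal protein genes 1 was lower and none higher, all differences lay between -0.51 and 0.13, and 36 of 40 were below 0 (median -0.11, and -0.03 after quantile normalization). None of 14 heat shock genes, 20 immediate early genes or 15 metallothionein and metal transport genes was called by limma with all arrays in the fit, with 4, 3 and 2 at an unadjusted p under 0.05. Heat shock genes gained 1 higher call once dim probe sets were left out and without adipose replicate 2. Immediate early genes gained 1 higher call without blood-derived replicate 1, and 1 lower call without adipose replicate 2 and under quantile normalization, median centring, the filter on dim probe sets, limma's trend option and array weights. None of 12 pluripotency genes was called, with 2 at that level.

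Transcription factors that record position in the body had shares called on either side of the 9.14% of all genes. These were 23.4% of the limb, trunk and craniofacial factors, 6.25% of HOX paralog groups 1 to 8 and 13.3% of groups 9 to 13. Of 47 limb, trunk and craniofacial factors 8 were higher and 3 lower (median 0.12). DLX5, a factor of jaw, limb and bone, was at 7.47, 8.47 and 8.69 in blood-derived cells, against 4.74, 4.54 and 4.03 in adipose cells (13.7-fold higher, adjusted p = 0.00142). MEIS3, a cofactor of HOX proteins, was at 6.78, 6.58 and 7.01 in blood-derived cells, against 5.14, 4.50 and 4.57 in adipose cells (4.15-fold higher, adjusted p = 0.00127). NKX3-2, a factor of the axial skeleton, was at 3.29, 3.35 and 3.40 in blood-derived cells, against 4.30, 4.68 and 4.36 in adipose cells (2.14-fold lower, adjusted p = 0.00334). The groups were apart in each. The higher count was 4 without blood-derived replicate 3 or adipose replicate 3, 5 without adipose replicate 2 and 2 in the 6 arrays alone. The lower count was 1 when blood-derived replicate 1 or 2 or adipose replicate 3 was left out and in the 6 arrays alone. Among 16 measured HOX genes of paralog groups 1 to 8 HOXC6 was the only one called, at 4.76, 4.29 and 3.70 in blood-derived cells, against 7.15, 6.42 and 6.74 in adipose cells (5.73-fold lower, adjusted p = 0.00193). Its bone marrow mean was 7.22 ± 0.19 (SD, n = 3). Of 15 genes of groups 9 to 13 HOXB9 was 1.63-fold higher and HOXC10 1.89-fold lower, calls that ended without blood-derived replicate 3 or adipose replicate 3 for HOXB9 (0.0548 to 0.055) and without blood-derived replicate 2 or 3 or any 1 of the bone marrow arrays for HOXC10 (0.0511 to 0.0961).

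Several of the largest and most consistent differences lay outside these pathways. CTHRC1, a secreted protein of matrix-forming fibroblasts, was at 11.98, 11.82 and 11.56 in blood-derived cells, against 7.49, 6.28 and 6.05 in adipose cells (36.3-fold higher, adjusted p = 0.000147). PAPSS2, which makes the sulfate donor for proteoglycans, was at 8.03, 7.68 and 8.11 in blood-derived cells, against 4.32, 4.66 and 4.45 in adipose cells (11-fold higher, adjusted p = 6.25e-05). PDLIM3, an actin-associated protein of muscle, was at 8.10, 8.37 and 8.22 in blood-derived cells, against 4.15, 3.05 and 3.71 in adipose cells (24.2-fold higher, adjusted p = 0.000205). PRDX2, a peroxiredoxin, was 8.66-fold higher, C1QTNF3, a secreted C1q relative, 9.99-fold, TSPAN7, a tetraspanin, 21.1-fold, and MARCKSL1, an actin and membrane regulator, 18.7-fold. The protease inhibitors SERPINB2 and SERPINB10 of the same family were 35.9-fold and 19-fold higher, with bone marrow means of 4.73 ± 1.15 and 3.79 ± 0.44 (SD, n = 3).

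On the lower side, DISP1, which releases Hedgehog ligands from cells, was at 4.87, 4.72 and 4.65 in blood-derived cells, against 8.48, 8.67 and 7.90 in adipose cells (12.2-fold lower, adjusted p = 0.000102). ASS1, argininosuccinate synthase, was at 4.56, 3.99 and 3.99 in blood-derived cells, against 7.21, 7.69 and 7.68 in adipose cells (10.2-fold lower, adjusted p = 0.000145). MRAP, the accessory protein of the corticotropin receptor, was at 5.23, 4.94 and 4.60 in blood-derived cells, against 9.29, 9.41 and 11.09 in adipose cells (32.1-fold lower, adjusted p = 0.000572). All adipose arrays lay far above all blood-derived arrays in these genes. SLC6A4, the serotonin transporter, was 2.98-fold lower, HVCN1, a voltage-gated proton channel, 4.32-fold, PLA2G7, the hydrolase of platelet-activating factor, 23.8-fold, and SELENOP, the selenium transport protein, 18.7-fold. APPL1, an adaptor of adiponectin receptors, was at 7.19, 7.38 and 7.46 in blood-derived cells, against 9.32, 9.21 and 9.17 in adipose cells (3.71-fold lower, adjusted p = 0.000161), and ADIPOR1, one of these receptors, was 2.24-fold higher. LPAR1, a lysophosphatidic acid receptor, and ACKR2, which scavenges chemokines, were 5.1-fold and 6.04-fold lower. They were the 2 calls among 18 chemotactic and homing receptors (11.1%, against 9.14% of all genes).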

How the data were processed

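Log2 intensities were used as deposited in the authors' processed table, 1 column per array. Per the submitters' processing notes, the tools were Partek 6.16.0419, Transcriptome Analysis Console 3 and Affymetrix Expression Console, with no role or order given. The summarization, background correction and normalization behind the deposited log2 values are not described by the sources used here, and neither scanner files nor detection calls were used. Genes were named from the platform annotation, under which 16789 of 30559 probe sets name 1 gene, 343 several and 13427 none. None was named from a probe set with several.

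All 9 arrays entered a group-means model in limma 3.58.1 in R 4.3.3, so that the 3 groups shared 1 estimate of the spread with 6 residual degrees of freedom. The contrast was blood-derived minus adipose cells, two-sided, with Benjamini-Hochberg adjustment over all probe sets and a threshold of 0.05. Only 3 arrays a group limit the precision. On simulated data with 50 changed probe sets per size among 30559, the same procedure recovered 28 of 50 at a log2 difference of 1, 46 at 2, 49 at 3 and 50 at 4, with 8 false calls.

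The comparison and 85 gene lists (1679 of 1910 symbols measured, each gene by its probe set of highest mean) were chosen with earlier results of these data known. Genes were named by rule. It takes the 25 largest differences per direction without overlap between the groups, with the 8 largest per direction used only where a result turns on them, the 10 per direction of smallest adjusted p besides these, up to 6 called members per list, and the defining markers. Further called list members were named after their values were seen. Replicate numbers of the titles were checked as possible pairs. Deviations from the group means correlated at 0.01 to 0.12 between same-numbered arrays and at -0.12 to 0.03 between others, so the numbers were not taken as pairs. Alternatives were quantile normalization, median centring, a filter on dim probe sets, limma's trend option, array weights, the replicate number as a block, the 6 arrays alone, 1 probe set per gene, a 2-fold rule and leaving out each array. No sequences were used.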

Additional observations from a re-analysis of the deposited data

How the results depend on the processing

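The numbers of 835 higher, 698 lower and 2116 called probe sets in all depended most on the samples behind the spread and on a size rule. With the 6 arrays alone they were 434, 335 and 1029, and with at least 2-fold required they were 472, 382 and 1192. Leaving out 1 array at a time gave 525 to 811 higher, 376 to 643 lower and 1176 to 2037 in all, and the cause was not tested beyond the smaller number of samples in each fit. The replicate block gave 667, 532 and 1625. The replicate numbers share no stated source, and the block is an alternative with fewer residual degrees of freedom. Quantile normalization, median centring, the filter on dim probe sets, limma's trend option, array weights and 1 probe set per gene kept the counts within 1.5 times. The share of calls that were higher ran from 52.6% to 58.7% over all fits. Of 338 named probe sets with a call 198 kept it in all 18 alternative fits and 225 in all 9 that leave out an array. No named gene with a call changed direction in any of these fits. Uncalled markers did: PTPRC had a log2 difference of -0.04, of 0.05 after quantile normalization, and of -0.33 to 0.16 when 1 array was left out, with 0.01 without blood-derived replicate 3 and 0.16 and 0.06 without adipose replicates 1 and 3. NT5E (-0.20) ran from -0.49 to 0.27 over such fits, above 0 when blood-derived replicate 3 (0.27) or adipose replicate 2 (0.03) was left out. PLIN1 (0.05) ran from -0.18, when adipose replicate 2 was left out, to 0.24. CXCR2 (-0.23) ran from -0.35 to 0.01, the upper value when adipose replicate 3 was left out. Dim probe sets limit the folds, since their distance from background is unknown.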

Other observations

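Ion channel genes had 4.08% of members called, adenosine and purine genes 14.3%, neural and Schwann cell genes 25% and neurotrophin and neuronal adhesion genes 20%, against 9.14% of all genes. CACNA2D1, an auxiliary calcium channel subunit that binds gabapentin, was at 6.16, 5.75 and 6.08 in blood-derived cells, against 4.60, 4.34 and 4.36 in adipose cells (2.96-fold higher, adjusted p = 0.00135), 1 of 2 higher among 49 ion channel genes. ADORA2B, the low-affinity adenosine receptor, was at 8.48, 8.13 and 7.99 in blood-derived cells, against 6.84, 6.02 and 7.05 in adipose cells (2.97-fold higher, adjusted p = 0.0153), a call that ended without blood-derived replicate 1 (0.052). P2RY14, a receptor for nucleotide sugars, was the lower of the 2 calls among 14 adenosine and purine genes, at 4.80, 4.24 and 4.67 in blood-derived cells, against 8.53, 6.09 and 9.42 in adipose cells (10.9-fold lower, adjusted p = 0.0238). Its call ended without any 1 of the blood-derived arrays or adipose replicate 1 or 3 (0.0526 to 0.0783) and in the 6 arrays alone (0.0829). The groups did not overlap in any of these 3 genes. MAP2, a microtubule protein of neurons, was at 6.76, 5.93 and 6.11 in blood-derived cells, against 5.16, 4.89 and 4.34 in adipose cells (2.77-fold higher, adjusted p = 0.0166, and 0.0579 in the 6 arrays alone). It was 1 of 3 higher among 12 neural and Schwann cell genes, a list with no call in the 6 arrays alone. STC1, the secreted hormone stanniocalcin, was at 6.86, 7.18 and 5.51 in blood-derived cells, against 4.13, 4.09 and 3.62 in adipose cells (5.93-fold higher, adjusted p = 0.00644). IFI27, an interferon-stimulated gene, was measured by 2 probe sets that disagreed. Probe set 15045770 was at 11.60, 11.67 and 11.55 in blood-derived cells, against 11.04, 10.84 and 10.86 in adipose cells (1.62-fold higher, adjusted p = 0.00767). Probe set 15045772 was at 9.70, 9.66 and 9.91 in blood-derived cells, against 10.50, 9.44 and 10.29 in adipose cells (log2 difference -0.32, adjusted p = 0.732), with overlapping groups. Axon guidance genes had 1 of 43 higher and 1 lower, both lost without several single arrays.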
